A study of Drosophila melanogaster with 4 samples.

Results

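The genes described here are the cytochrome P450 and glutathione S-transferase (GST) genes of Drosophila, as measured in whole virgin female flies without dSETD3 and in their controls. A gene was taken up when the probe tables used for naming give one of its probes a Cyp or Gst symbol, and every other probe of the same transcript identifier was then added. This gave 42 probes of 29 genes, 17 P450 genes and 12 GST genes, out of 32162 probes with 25885 transcript identifiers on the array. Of these, 38 probes of 27 genes are named whatever their outcome. The remaining 4 probes, of Cyp12d1-p and Cyp4e3, are known only from a table of probes that the study picked for their change, so they are described apart, with no test, and are left out of all counts of calls. The RefSeq annotation (assembly GCF_000001215.4) holds 87 P450 and 33 GST genes, of which 35 and 17 lie on chromosome arm 2R. Because the naming table was used up to its row 1992, the families' other genes, on 2R and elsewhere in the genome, are not analysed here. Of the 29 genes described, 28 lie on 2R, where the families have 52 genes. Cyp4e3, on 2L, is the exception.

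Cytochrome P450s are haem enzymes that oxidise small molecules, among them hormones, fatty acids, plant toxins and insecticides. Insect P450s fall into clans by sequence. The CYP3 and CYP4 clans hold many enzymes that act on foreign compounds, while the mitochondrial clan mixes such enzymes with enzymes of ecdysteroid synthesis. GSTs attach glutathione to reactive compounds, often to the products of P450s, and the insect-specific epsilon class acts on insecticides and on aldehydes from lipid peroxidation. In adult flies the main sites of both families are the midgut, the Malpighian tubules and the fat body. Many of their genes are induced by foreign chemicals, through the pathway of Keap1 and the transcription factor Cnc and through the nuclear receptor Hr96.

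The dSETD3 KO flies carried a CRISPR-Cas9 allele of CG32732, the gene for the putative methyltransferase dSETD3, in which a dsRED cassette replaces the first exon (label genotype w[1118];;CG32732-/-). One stock of this allele, repeatedly backcrossed to w[1118], was used, so that there is no second allele. Control flies were isogenic w[1118]. All were virgin females, 5 days old, and RNA of whole flies was hybridised with 1 dye, giving 2 arrays of dSETD3 KO flies and 2 of control flies. How many flies were pooled for an array is not given in the sources used here.

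Each array held 45019 spots, none of them saturated, and between 63.6% and 66.8% of the probes were well above background. Replicates correlated at r = 0.993 between the dSETD3 KO arrays and r = 0.991 between the control arrays over the 21082 probes tested. Both probes of CG32732 followed the labels, with A_09_P016351 giving 9.15 and 6.53 on the dSETD3 KO arrays against 7384 and 6981 on the control arrays. Markers of the female body were strong on every array, Yp1 (a yolk protein) reading 39396 and 46888 in dSETD3 KO flies and 44250 and 39550 in control flies. All 4 arrays shared 1 slide and genotype followed the position on it, so position and genotype cannot be told apart. Signals are given here on 1 scale, on which the 75th percentile of each array equals 1541. Signals of different probes are not compared as transcript levels, since a probe's brightness also depends on its sequence. Changes are log2 differences, dSETD3 KO minus control, with the standard error (SE) of limma's fit and a p-value adjusted by Benjamini-Hochberg over all 21082 probes. A probe is called when this adjusted p is under 0.05.

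Of the 37 tested P450 and GST probes named whatever their outcome, 6 probes of 4 genes were higher in dSETD3 KO flies and 7 probes of 6 genes were lower. Higher were Cyp12d1-d, Cyp4p2, Cyp6a19 and GstE1. Lower were Cyp301a1, Cyp49a1, Cyp6g2, GstE3, GstE4 and GstE11. The 6 higher probes are 16.2% of those tested, where 3.8% of all probes tested were called higher, and the 7 lower probes are 18.9%, where 16.6% of all probes tested were called lower. The share of lower calls was thus near that of the whole array. Both probes of Cyp4p2 entered the test only through their signal in dSETD3 KO flies. When only probes well above background on all 4 arrays were tested, 4 of 35 were higher (11.4%, against 4.94% of all probes tested) and 10 were lower (28.6%, against 18.4% of all probes tested). At least 2-fold changes with an unadjusted p under 0.05 were seen at 5 higher and 3 lower probes of the 37. Of all probes tested, 1.4% were higher and 4.89% lower by these limits. Both dSETD3 KO arrays lay above both control arrays at 9 of the 37 probes and below them at 19 of the 37. Over the whole array they lay above at 39.4% and below at 37.2% of the probes tested. The median change was -0.23 over the 37 probes and 0.02 over all probes tested. Scaling each array to its median signal instead of its 75th percentile gave 9 higher calls (24.3%, against 39.4% of all probes) and 5 lower calls (13.5%, against 12.4%), so that the share of higher calls was then below that of the array. A normexp background correction gave 6 higher calls (16.2%, against 1.92% of all probes) and 4 lower calls (10.8%, against 6.6%). With limma and either control array left out, 1 control array remained and the calls did not hold. Without control replicate 1 the median change was -0.34 for P450 and -0.14 for GST probes. Without control replicate 2 it was -0.24 for P450 and -0.19 for GST probes.

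**Figure D1:**
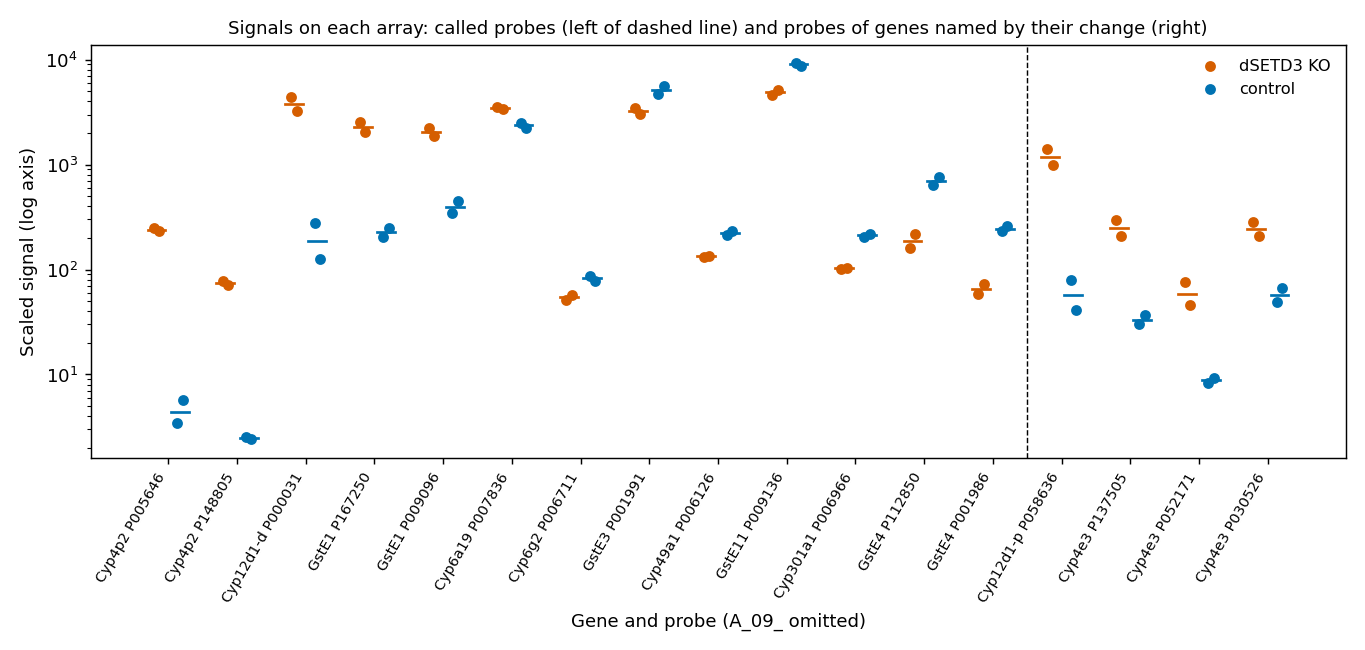
Scaled signal (log axis) on each array for the 13 called probes, left of the dashed line, and for the 4 probes of genes named only by their change, right of it. Points are arrays (dSETD3 KO left, control right), and bars are geometric means of the 2 arrays. Among the called probes, the largest gaps are at Cyp4p2, Cyp12d1-d and GstE1.

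Among the mitochondrial P450s, Cyp12d1-d was far higher in dSETD3 KO flies while Cyp301a1 and Cyp49a1 were lower. Cyp12d1-d belongs to a pair of nearly identical neighbouring genes, Cyp12d1-p and Cyp12d1-d, which respond to many foreign chemicals and raise resistance to DDT when overexpressed. Its probe A_09_P000031 gave 4383 and 3229 in dSETD3 KO flies, against 278 and 125 in control flies. The groups stood well apart, and the control arrays themselves differed by 2.23-fold. The change was 4.34 (SE 0.43, adjusted p = 0.017), a 20.2-fold higher signal. A second probe of the same transcript, A_09_P134045, was not well above background on any array, with 3.84 and 3.20 in dSETD3 KO flies and 2.55 and 2.43 in control flies, and was not tested.

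The neighbour Cyp12d1-p, named only by its change, gave 1411 and 985 in dSETD3 KO flies and 79.2 and 40.9 in control flies, a difference of 4.37 or 20.7-fold. Here too control replicate 1 was the higher control array, by 1.94-fold. Because the paralogs are nearly identical, how far each probe reads its own gene was not tested.

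Cyp301a1, which is needed for the adult cuticle, is spotted 10 times on the array. Its probe gave 102 and 104 in dSETD3 KO flies and 203 and 220 in control flies. Replicates differed little and the groups did not overlap, with a change of -1.03 (SE 0.09, adjusted p = 0.017). Cyp49a1 gave 133 and 135 in dSETD3 KO flies and 211 and 233 in control flies, a change of -0.73 (SE 0.10, adjusted p = 0.021). Under the normexp correction the changes were -0.63 for Cyp301a1 and -0.48 for Cyp49a1, the second of which was then not called. Cyp301a1 was also under 2-fold with quantile (-0.76) and cyclic loess normalization (-0.75) and with each array scaled to its median (-0.73). For Cyp12b2, 3 probes were lower on both dSETD3 KO arrays than on both control arrays, as were 37.2% of all probes tested. None of the 3 was called. Probe A_09_P009251 gave 663 and 832 in dSETD3 KO flies and 1007 and 1050 in control flies (adjusted p = 0.081). The changes of the 3 probes were -0.47, -0.47 and -0.32, with adjusted p between 0.067 and 0.15. Over the clan, 1 of 6 tested probes was higher and 2 were lower, where 3.8% and 16.6% of all probes tested were. The median was -0.47, and 3 of the 6 probes are those of Cyp12b2.

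In the CYP4 clan, Cyp4p2 was far higher in dSETD3 KO flies and the other 2 genes named whatever their outcome were not called. Probe A_09_P005646 gave 246 and 233 in dSETD3 KO flies, against 3.41 and 5.70 in control flies, where it was not well above background. Its companion A_09_P148805 gave 77.1 and 71.1 in dSETD3 KO flies and 2.55 and 2.43 in control flies, again not well above background. Cyp4p2 was therefore detected in dSETD3 KO flies alone. Limma's fit to the signals as measured gave changes of 5.76 (adjusted p = 0.0066) and 4.89 (adjusted p = 0.0022). Both probes entered the test only through their signal in dSETD3 KO flies, so these p-values rest on control signals not well above background. With the control signal raised on each array to the lowest signal well above background, the first probe was at least 37.4-fold higher. The second was at least 11.5-fold higher, and these bounds were not tested. Under a normexp background correction, which raises weak signals, the changes were 2.26 and 1.39.

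Cyp4p3, the next gene of the same cluster, was detected in both groups and was not called. Its first probe gave 97.4 and 70.1 in dSETD3 KO flies and 64.9 and 69.1 in control flies, a change of 0.30 (SE 0.18, adjusted p = 0.25). At its second probe the dSETD3 KO arrays read 45.7 and 31.6 and the control arrays 35.2 and 33.1, so that the groups overlapped (change 0.15, adjusted p = 0.57). Cyp4aa1 gave 77.2 and 59.7 in dSETD3 KO flies and 71.99 and 63.9 in control flies, with a change of 0.00 (SE 0.16, adjusted p = 0.99).

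Cyp4e3, a P450 whose knockdown in the Malpighian tubules lowers tolerance to a pyrethroid, is named only by its change and is given as a description. At A_09_P137505 the signal was 295 and 207 in dSETD3 KO flies and 30.2 and 36.6 in control flies, a 7.42-fold difference. A_09_P030526 gave 283 and 207 in dSETD3 KO flies and 48.9 and 66.6 in control flies, a 4.25-fold difference. The third probe, A_09_P052171, which the table of changed probes does not list, gave 76.1 and 45.6 in dSETD3 KO flies. Its control signals of 8.37 and 9.33 were not well above background. All 3 probes were thus higher on both dSETD3 KO arrays than on both control arrays, with dSETD3 KO replicate 1 the higher each time. Of all probes tested, 39.4% were higher on both dSETD3 KO arrays in this way.

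**Figure D2:**
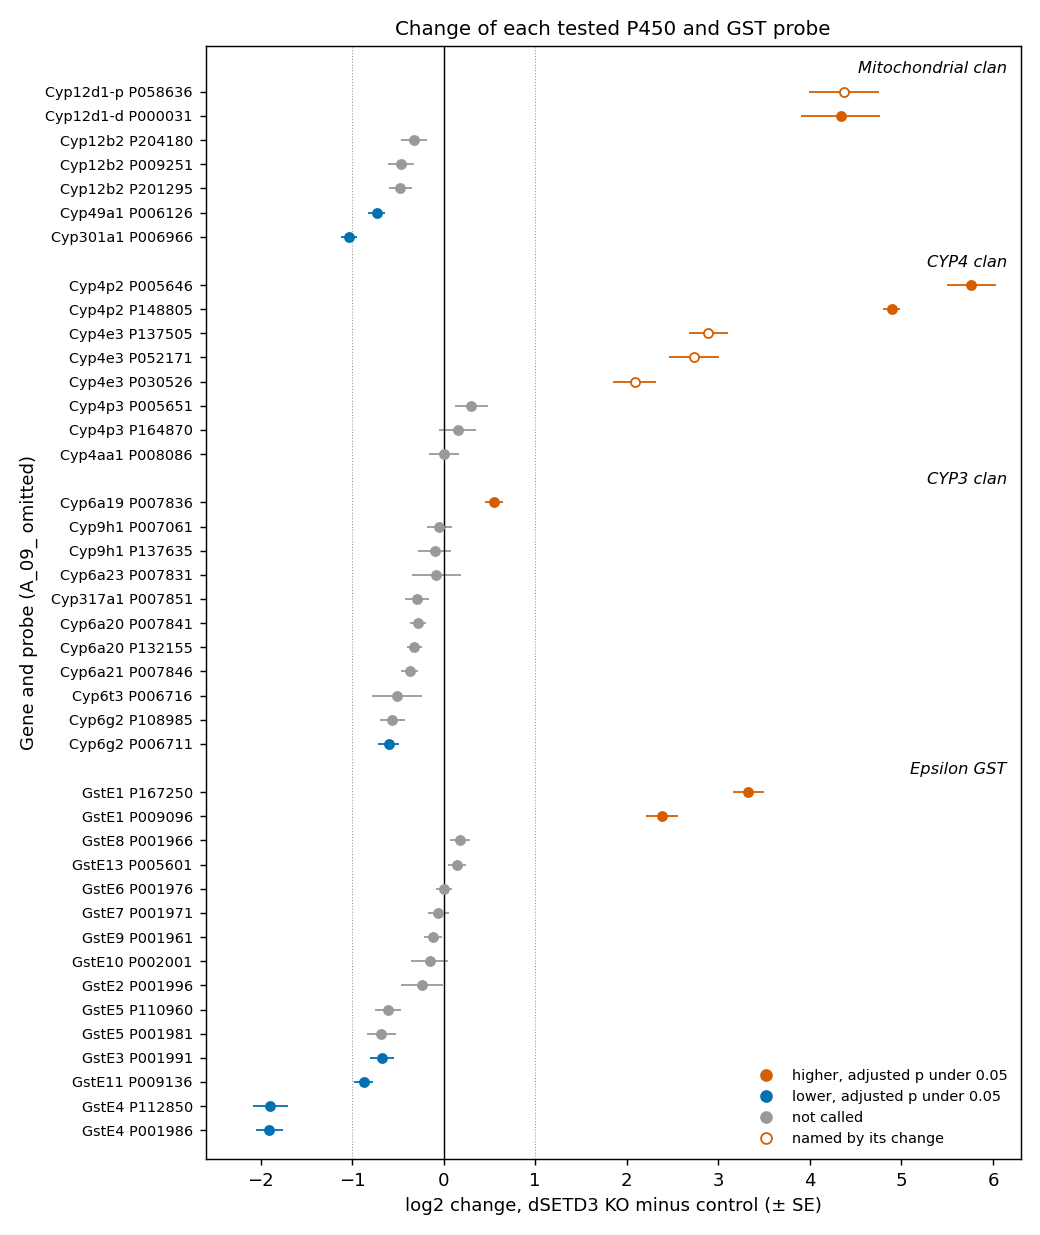
Log2 change (dSETD3 KO minus control, ± SE) of each of the 41 tested probes, 1 per row, grouped by P450 clan and GST class. Filled orange and blue points are called higher and lower, grey points are not called, open points are the 4 probes of genes named by their change, and dotted lines mark 2-fold changes. The CYP3 clan stays within 2-fold, while each of the other classes holds at least 1 gene beyond it.

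CYP3 clan genes, 8 genes with 11 probes, moved by less than 2-fold in every case. Only Cyp6a19 was higher, at 3531 and 3411 in dSETD3 KO flies against 2510 and 2253 in control flies (change 0.55, SE 0.10, adjusted p = 0.034). Cyp6g2, whose overexpression raises resistance to several insecticides, was lower at 1 of its 2 probes. That probe gave 51.3 and 57.6 in dSETD3 KO flies and 87.2 and 78.0 in control flies (change -0.60, SE 0.11, adjusted p = 0.036). The other gave 75.5 and 83.3 in dSETD3 KO flies and 106 and 129 in control flies, a change of similar size that missed the threshold (-0.56, adjusted p = 0.058). The call of Cyp6g2 was also lost under quantile and cyclic loess normalization, with changes of -0.30 and -0.25, and Cyp6a19 had a change of 0.85 with each array scaled to its median.

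Cyp6t3, the neighbour of Cyp6g2 and an enzyme of ecdysteroid synthesis in larvae, gave 46.3 and 75.3 in dSETD3 KO flies and 77.1 and 91.6 in control flies (change -0.51, SE 0.27, adjusted p = 0.20). Its dSETD3 KO arrays lay far apart, and both were below the control arrays. Both probes of Cyp6a20, known for its effect on male aggression, were lower on both dSETD3 KO arrays, by -0.28 and -0.32 (adjusted p = 0.078 and 0.062). Cyp6a21 gave 756 and 693 in dSETD3 KO flies and 923 and 951 in control flies (change -0.37, adjusted p = 0.060). Cyp317a1 had a change of -0.30 (adjusted p = 0.16). Cyp9h1 overlapped between the groups at both probes, with changes of -0.05 and -0.10. Cyp6a23 varied between replicates of both groups, with 2346 and 1791 in dSETD3 KO flies and 1730 and 2707 in control flies (change -0.08, SE 0.27). Of the 11 probes of the clan, 10 had a negative change, against 48.4% of all probes, and the median was -0.30. The number of negative changes was 8 under quantile normalization and 5 with each array scaled to its median, against 44.2% and 32.4% of all probes.

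All 12 GST genes named here are of the epsilon class, and their changes ran in both directions. The family's other genes were not analysed, so nothing is known here of their changes. Among the 12, only GstE1, an enzyme that conjugates the lipid peroxidation product 4-hydroxynonenal, was called higher in dSETD3 KO flies. Probe A_09_P167250 gave 2529 and 2026 in dSETD3 KO flies, against 203 and 250 in control flies (change 3.33, SE 0.17, adjusted p = 0.0084, 10.03-fold). At A_09_P009096 the signal was 2249 and 1890 in dSETD3 KO flies and 347 and 451 in control flies (change 2.38, SE 0.18, adjusted p = 0.015, 5.22-fold). The direction was the same at both probes, and the sizes differed.

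GstE4 was lower in dSETD3 KO flies, by nearly the same amount at both of its probes. A_09_P001986 gave 58.2 and 73.3 in dSETD3 KO flies, against 231 and 259 in control flies (change -1.90, SE 0.15, adjusted p = 0.015). A_09_P112850 gave 162 and 220 in dSETD3 KO flies, against 645 and 761 in control flies (change -1.89, SE 0.19, adjusted p = 0.017). In linear terms the control signals were 3.74-fold and 3.71-fold those of dSETD3 KO flies, and the first change was -1.18 under the normexp correction. GstE11 gave 4637 and 5190 in dSETD3 KO flies and 9209 and 8780 in control flies (change -0.87, SE 0.10, adjusted p = 0.019). GstE3 gave 3461 and 3005 in dSETD3 KO flies and 4737 and 5595 in control flies (change -0.67, SE 0.13, adjusted p = 0.040). With each array scaled to its median, GstE11 had a change of -0.57 and GstE3 one of -0.37, and GstE3 was not called. Both probes of GstE5 fell just outside the threshold, with changes of -0.68 and -0.61 and adjusted p of 0.052 and 0.051.

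The other 7 GST genes had changes between -0.23 and 0.18 and were not called. GstE6 had the smallest change of the GST genes named here, with 17881 and 17762 in dSETD3 KO flies and 18295 and 17208 in control flies (change 0.01, SE 0.09). GstE8 and GstE13 lay above the control arrays on both dSETD3 KO arrays (changes 0.18 and 0.15, adjusted p = 0.26 and 0.30). GstE9 lay below them (change -0.12, adjusted p = 0.39). GstE2, GstE7 and GstE10 overlapped between the groups. GstE2 gave 219 and 214 in dSETD3 KO flies and 206 and 315.3 in control flies, so that 1 control array set its negative change (-0.23, SE 0.23).

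Along the arm, some neighbouring genes changed alike and others did not. Genes were taken as clustered when at most 5 other genes lay between neighbours in the RefSeq order. The largest cluster runs GstE10, GstE1, GstE2, GstE3, GstE4, GstE5, GstE6, GstE7, GstE8, GstE9, and in it the higher GstE1 lies between 2 uncalled genes. The lower GstE3 and GstE4 follow each other among the GST genes, with 2 other genes between them. GstE5, next to GstE4, has negative changes that miss the threshold, and the 4 genes from GstE6 to GstE9 stay within 0.18 of 0. Of the 13 probes of this cluster, 2 were higher and 3 lower (15.4% and 23.1%, against 3.8% and 16.6% of all probes tested). In the run from Cyp6a23 to Cyp317a1, Cyp6a19 is higher, and its 4 neighbours are uncalled and have negative changes. Cyp6g2 and Cyp6t3 are adjacent, and all 3 of their probes had negative changes, of -0.60, -0.56 and -0.51, with 1 of them called. At all 3 both dSETD3 KO arrays lay below both control arrays, as at 37.2% of all probes tested. Cyp4p2 and Cyp4p3, with 1 other gene between them, had unlike changes, at 5.76 and 4.89 for the probes of Cyp4p2 and 0.30 and 0.15 for those of Cyp4p3. Cyp12d1-p and Cyp12d1-d, also with 1 other gene between them, were 20.7-fold and 20.2-fold higher, the first of them named by its change.

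**Figure D3:**
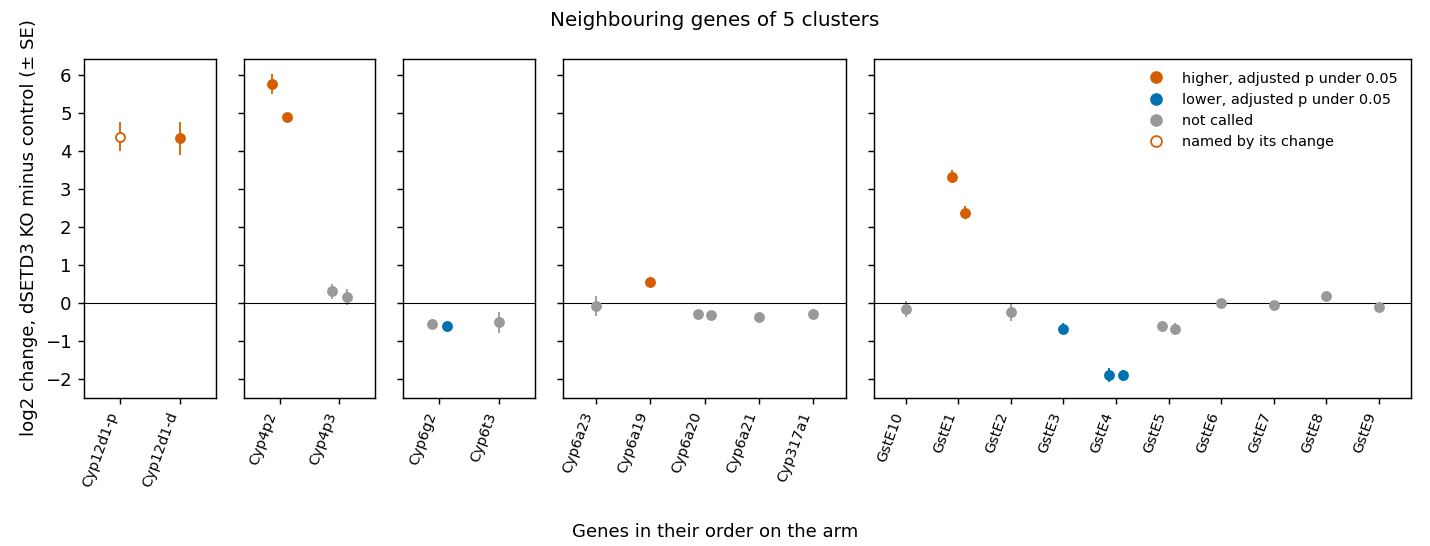
Log2 change (dSETD3 KO minus control, ± SE) of each tested probe for 5 groups of neighbouring genes, placed in gene order along the arm and not to distance. Colours are as in the plot of changes by class. GstE1 at 3.33 and 2.38 stands beside uncalled GstE10 and GstE2, and Cyp4p2 stands beside uncalled Cyp4p3.

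Probe against probe, the measured changes of 1 gene were close in most cases. Among the genes named whatever their outcome, 9 had at least 2 tested probes and gave 11 pairs, of which 9 differed by under 0.2 in log2 change. The median difference was 0.0781 and the smallest 0.00208, between 2 probes of Cyp12b2. The other pairs were those of GstE1, which differed by 0.94, and of Cyp4p2, which differed by 0.87. The 3 pairs of Cyp4e3, which was named by its change, differed by 0.81, 0.65 and 0.15. For Cyp4p2 the size is open at both probes, because neither was well above background in control flies. In no pair did the directions differ. Sequences of 27 of the probes, each 60 bases long and each of a different gene, were at hand. The longest run of bases that 2 of them share is 10, between Cyp6a21 and GstE11. Probes of the same gene were therefore not compared by sequence.

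**Figure D4:**
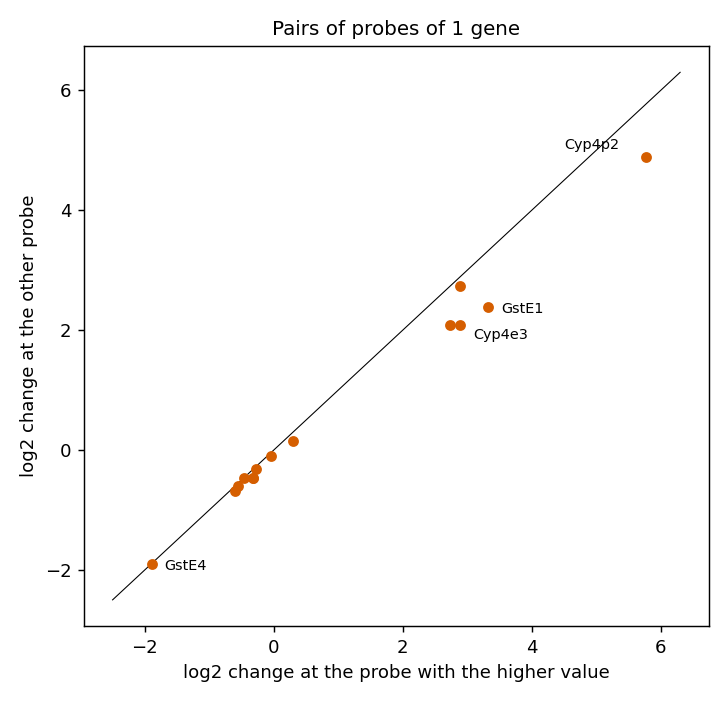
Log2 change (dSETD3 KO minus control) at 2 probes of the same gene, with the higher of the 2 values on the x axis, for 14 pairs in 10 genes, 3 of the pairs being of Cyp4e3. The line marks equal changes, and the pairs farthest below it belong to GstE1, Cyp4p2 and Cyp4e3.

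Probes were also grouped by basal signal, the mean of the control arrays. The control signal is itself a term of the change and depends on the probe's sequence, so this grouping is a description. Below a control signal of 100, 8 probes had changes between -0.60 and 5.76 (median 0.08), with 2 higher and 1 lower, where 5.38% of all probes in this range were called higher and 18.4% lower. Both higher probes are those of Cyp4p2, and over the 6 probes well above background on all arrays the median was -0.16. Between 100 and 1000, 17 probes ran between -1.90 and 4.34 (median -0.37), with 3 higher and 4 lower. Of all probes in that range, 4.16% were called higher and 26.1% lower. Above 1000, 12 probes ran between -0.87 and 0.55 (median -0.10), with 1 higher and 2 lower, against 2.72% and 9.11% of all probes there. Medians over all probes tested in the same ranges were -0.26, -0.19 and 0.13.

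**Figure D5:**
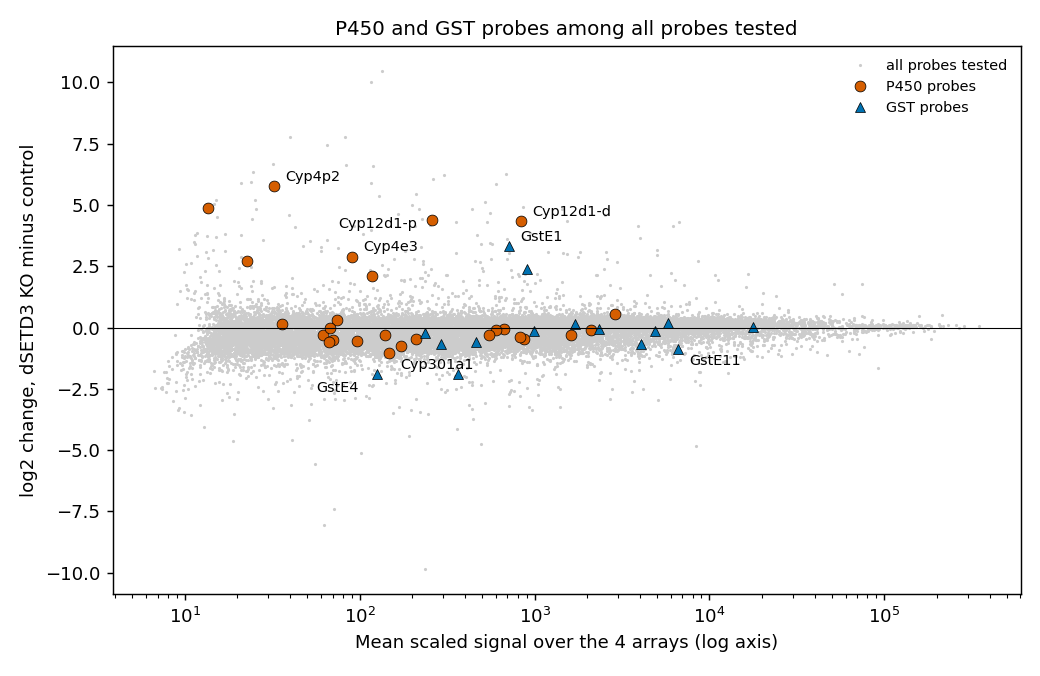
Log2 change (dSETD3 KO minus control) against the mean scaled signal over the 4 arrays (log axis) for all 21082 probes tested (grey), with P450 probes as orange circles and GST probes as blue triangles. Cyp4p2, Cyp12d1-d and GstE1 lie above the body of the array, GstE4 below it, and most other P450 and GST probes within it.

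By family, the 22 tested P450 probes had a median change of -0.29, with 4 higher (18.2%) and 3 lower (13.6%). Both probes of Cyp4p2, which entered the test only through their signal in dSETD3 KO flies, are among the 4 higher. The 15 GST probes had a median of -0.15, with 2 higher (13.3%) and 4 lower (26.7%). Of all probes tested, 3.8% were called higher and 16.6% lower. When each array was scaled to its median signal, these medians became 0.015 for P450 and 0.15 for GST probes, while the median of all probes became 0.32, against 0.02 under the 75th percentile. This scaling shifts every probe by the same amount, so the gap to all probes is unchanged by construction. Under quantile normalization the gap was smaller for P450 probes, with a median of -0.0752 against 0.0527 for all probes. The median of GST probes was then -0.12, so their gap did not shrink in this way.

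Of a list of 34 other genes of detoxification and redox balance, 9 were named, with 12 tested probes. Apart from MtnB, which was named by its change, 11 probes were tested, of which 3 were higher and 1 lower, with a median of -0.20. Of all probes tested, 3.8% were called higher and 16.6% lower, and their median was 0.02. Prx2540-2, a peroxiredoxin, gave 5096 and 5570 in dSETD3 KO flies and 2846 and 2271 in control flies (change 1.07, adjusted p = 0.022). Sod3, an extracellular superoxide dismutase, was higher at 1 of 2 probes, with 262 and 240 in dSETD3 KO flies and 141 and 152 in control flies (change 0.78, adjusted p = 0.020). The other probe of Sod3 had a change of -0.04. Nox, an NADPH oxidase, was close to the threshold (change 0.52, adjusted p = 0.0499). DJ-1alpha, a homologue of the Parkinson's disease protein DJ-1, was lower, with 26.9 and 21.0 in dSETD3 KO flies and 72.6 and 87.6 in control flies (change -1.75, adjusted p = 0.017). MtnB, a metallothionein, gave 332 and 361 in dSETD3 KO flies and 104 and 82.5 in control flies. Neither cnc, Keap1 nor Hr96 had a named probe.

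Markers of the organs in which these families are best known were few. Uro, the urate oxidase of the Malpighian tubules, gave 1310 and 634 in dSETD3 KO flies and 913 and 1786 in control flies, and was not called. Of 9 midgut genes, 3 were named, all by their change, so their lower signals follow from that choice and give no measure of the midgut. The only one of their probes not itself picked, A_09_P056506 of kappaTry, was not called (change -0.67, adjusted p = 0.10). None of 4 fat body markers had a named probe, and the 2 named yolk protein genes were not called. Of 9 germline probes, 1 was higher, for krimp (change 0.77), where 3.8% of all probes tested were called higher. In RNA of whole flies, fewer cells of a type and less RNA per cell cannot be told apart. The part of the midgut, tubule and fat body in the changes of the P450 and GST genes was not tested.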

How the data were processed

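The authors deposited, array by array, what Agilent Feature Extraction (10.7.3.1) wrote for 1-colour 4x44k arrays. Its intensity values are corrected for background and not normalized between arrays. Their deposited table of 1 intensity per probe matches the average median intensity over a probe's spots for 31962 of 31962 probes with 1 or 2 spots (within 0.01), and served as an alternative. Its medians were 131 and 107 for dSETD3 KO and 148 and 166 for control arrays. The values of control replicate 1 are rounded to at most 3 digits. Control spots (1417) and outlier spots (45 to 73 an array) were left out, log2 intensities were averaged per probe, and each array's 75th percentile (1662 and 1179 for dSETD3 KO, 1630 and 1766 for control) was subtracted.

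Probes with at least 0.5 of their spots well above background on both arrays of 1 genotype were tested with limma 3.58.1 (lmFit, eBayes, R 4.3.3), a single genotype term and p-values adjusted by Benjamini-Hochberg. Student's t tests are the only tests the paper's methods name, no normalization is given there, and 2 arrays per genotype leave few degrees of freedom, so limma was the main test. The number of arrays limits the precision. The series' design calls the 2 arrays of a genotype biological replicates. The fit was tested on simulated data first. For probes not well above background in 1 genotype, the fold is a lower bound, taken against the higher of its own signal and the lowest signal well above background (5.62 to 7.42).

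Names came from the study's probe tables, of which fold changes and p-values were not used. Every P450 and GST gene is named in the text, with full values for the called ones. Members and lists were chosen with earlier results of these data known. The probe annotation predates RefSeq's assembly, so no coordinates are given. Python 3.11.15 with pandas 2.3.3, numpy 2.4.6 and matplotlib 3.10.9 made the tables and figures.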

Additional observations from a re-analysis of the deposited data

How the results depend on the processing

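Counts below are of the 37 tested probes, given as higher and lower at an adjusted p under 0.05, with 6 and 7 in the fit described. Under normexp the lower count was 4. At the 2-fold limits the lower count was 3 in the fit described. It was 2 under quantile, cyclic loess, median scaling and normexp, and for the table of median intensities. With no filter on dim probes the counts were 3 and 0 (limma), against 38 and 26 of all 32152 probes. In that fit 21 of 38 probes had an unadjusted p under 0.05, as had 8034 of all 32152. Student's test gave 0 and 0 with 15 probes at an unadjusted p under 0.05, against 6404 of all 21082 probes. Welch's test gave 0 and 0 with 11, against 3298 of all 21082 probes. Restricted to probes well above background on all 4 arrays, 4 of 35 were higher and 10 lower, and the higher count at the 2-fold limits was 3, since Cyp4p2 left the test. Leaving out 1 array in turn gave 0 to 7 higher and 0 to 9 lower at an adjusted p under 0.05, and 5 higher with 2 to 3 lower at the 2-fold limits. Both counts of 0 came from leaving out a control array, after which 1 control array is assumed to vary like the dSETD3 KO arrays. The median change of P450 probes was -0.0752 under quantile normalization, -0.0513 under cyclic loess, 0.015 with the median subtracted, -0.111 under normexp and -0.0809 for the table of median intensities. That of GST probes was 0.15 with the median subtracted. Over all probes, the share of calls that were higher was 18.6%, and 36.8% under quantile, 37.2% under cyclic loess, 76.0% with the median subtracted and 42.3% for the table of median intensities. The deviations of arrays with the same replicate number correlated at r = -0.211 over 21082 probes. With only 2 pairs, this cannot show whether same-numbered arrays were handled together. With the replicate number as a block, 5 probes were higher and 5 lower, against 382 and 2509 of all 21082 probes. The crossed pairing, added after seeing the data, gave 5 and 4, against 319 and 1400 of all 21082 probes. Each of the 13 called probes kept its direction under all alternatives run. The highest adjusted p over the alternatives was 0.31 for 12 of them and 0.38 for Cyp6g2. The 2 arrays per genotype, the scaling, and control signals near background for Cyp4p2 limit these values.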
